A study of Homo sapiens with 4 samples.

Results

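The genes of the mitochondrial protein import machinery were described in MM.1S cells, a line established from a human multiple myeloma, after treatment with JG342, an allosteric inhibitor of the HSP70 chaperones. Members were all rows whose symbol begins with TOMM or TIMM followed by a number or the letter D, together with PAM16, PMPCA, PMPCB, IMMP1L, IMMP2L, CHCHD4, GFER, SAMM50, MTX1, MTX2 and MIPEP. The rule found 37 of the 16057 genes in the deposited table and used no measured value. JG342 was given at 350 nM and the control cells received the solvent DMSO, both for 26 h, with 2 libraries in each group labelled as biological duplicates. Both groups were the same cell line with no genetic change named in the labels, and a single line limits what the comparison stands for.

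Nearly all mitochondrial proteins are made in the cytosol and must be imported. The TOM complex of the outer membrane receives them. The SAM complex inserts barrel proteins into that membrane, the MIA pathway folds cysteine-rich proteins in the intermembrane space, and the TIM22 and TIM23 complexes serve the inner membrane. A motor built around mitochondrial HSP70 pulls matrix proteins through TIM23, and peptidases then remove their targeting sequences. Plasma cells secrete large amounts of immunoglobulin, and their myeloma counterparts rely heavily on chaperones.

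Values were taken as TPM from the near-equal library totals, a unit that no header names. TPM scale transcripts to a fixed total per library after division by length, so levels can be compared between genes as well as between libraries. Library totals ran from 994463 to 994718 TPM. Read depth is not recorded in TPM, so no counting interval is given. All 10 plasma cell markers on the list were present, from 22.04 TPM for CD38 to 10384 TPM for JCHAIN, with 2 called higher and 2 lower at a limma adjusted p under 0.05, beside 18.4% of all fitted genes in either direction. These counts were 1 and 1 with libraries scaled to equal medians, beside 18% of all fitted genes in either direction. They were 3 and 3 in a fit blocked on replicate number, beside 34.9%. Of 11 markers of other cells, 9 were in the table and together held 47.3 and 59.8 TPM with DMSO and 61.1 and 50.9 TPM with JG342, most of it LYZ. PAX5 did not exceed 0.26 TPM in any library, or CD14 0.99 TPM. CD3G was called higher (0.80 ± 0.17 SE in log2 units, limma adjusted p 0.0152), while CD3E was at −0.55 ± 0.23 SE (limma adjusted p 0.132; 0.00753 with the block and 0.0559 with the block and equal medians). The part of these markers in the results was not tested. In RNA from whole cultures, a lower level in every cell and a fall in only some of the cells cannot be told apart.

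All 37 import genes averaged 1 TPM or more across libraries and were among the 12042 genes fitted. Calls were made at a limma adjusted p under 0.05 over all fitted genes. Genes said to pass or to be called in limma are those of the fit without a block on replicate number and without scaling between libraries. After JG342, 7 import genes fell, namely TOMM40, TOMM40L, TOMM5, TOMM6, CHCHD4, TIMM21 and TIMM22. TOMM20L was past the threshold in the other direction, but it averaged under 1 TPM with DMSO and passed the filter only through the JG342 libraries, so its call is a description and supports no count. No other import gene was called higher in limma. Of all fitted genes, 7.62% were called lower, 10.8% higher and 18.4% in either direction. Scaling the libraries to equal medians changed the share of calls over all genes that were higher from 58.7% to 44.6% and lowered the median of all genes from 0.03 to −0.03. Of all fitted genes 18% were then called, 9.97% lower and 8.02% higher, and among import genes 9 were called lower, with SAMM50 and TOMM22 added. Without that scaling 29 import genes did not pass. An unadjusted limma p under 0.05 was found for 17 of the 37, TOMM20L among them, beside 4044 of the 12042 fitted genes. That background also applies to the counts of unadjusted p given below. With the replicate number as a block, 12 import genes were called lower and 4 higher, TOMM20L among them, against 15.7% and 19.2% of all fitted genes (34.9% in either direction). With the block and equal medians these counts were 16 and 2, with TOMM20L again among the higher. They stand against 19.2% and 13.9% of all fitted genes (33.1% in either direction). The count of 7 lower genes was 1 without DMSO replicate 1, 1 without DMSO replicate 2, 3 without JG342 replicate 1 and 6 without JG342 replicate 2. Each of these fits rested on 1 residual degree of freedom. The calls of TOMM6 and TIMM22 were lost whichever library was left out. TIMM44 was called without JG342 replicate 1, and TIMM8B and IMMP2L without JG342 replicate 2. Quantile normalization called TOMM7 and lost TOMM6 (limma adjusted p 0.0378 and 0.0615).

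**Figure D1:**
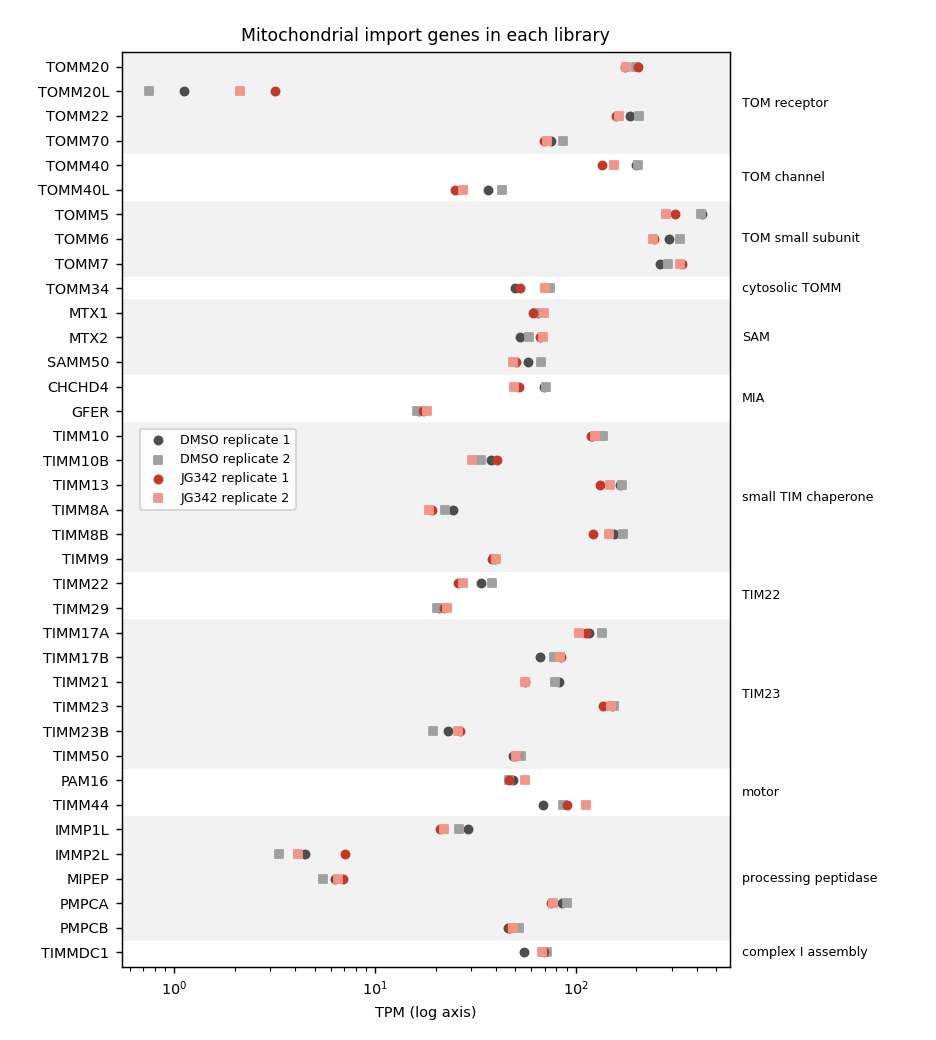
Level of each of the 37 import genes in TPM on a log axis, 1 point per library, with genes grouped by role. Levels span from 0.75 TPM for TOMM20L to 427 TPM for TOMM5, and the DMSO and JG342 points of the TOMM40, TOMM40L, TOMM5, CHCHD4 and TIMM21 rows stand apart.

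Both genes of the TOM channel fell. TOMM40 forms the pore of the outer membrane. It was at 200.1 and 204 TPM in the DMSO libraries and at 134 and 154 TPM in the JG342 libraries. The groups did not overlap, and the log2 fold change of TPM + 1 was −0.49 ± 0.10 SE (limma adjusted p 0.0125). This change ran from −0.58 to −0.39 with a library left out, and the call was lost in a fit without a mean-variance trend. It was also lost when either DMSO library or JG342 replicate 1 was left out. TOMM40L, a related channel protein, was lower in level throughout. Its values were 36.3 and 42.7 TPM with DMSO and 25.0 and 27.5 TPM with JG342, which is −0.57 ± 0.13 SE in log2 units (limma adjusted p 0.0157). With a library left out this change ran from −0.68 to −0.46, and the call was lost without DMSO replicate 2 and without JG342 replicate 1. TOMM40 stood at 5.51 and 4.77 times TOMM40L with DMSO and at 5.38 and 5.60 times with JG342, and these ratios overlapped between groups. Processed pseudogenes match TOMM40 over up to 60.9% of its transcript at 95% identity or more. TOMM40L shares up to 400 nt of exon with NR1I3 on the opposite strand. NR1I3 was at 10.06 and 13.90 TPM with DMSO and at 8.47 and 7.71 TPM with JG342. Whether strand was used in counting is not given in the sources used here. Reads within the shared exon stretch may therefore come from either TOMM40L or NR1I3.

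The promoters of the channel genes are shown because both genes fell. Sequences are RefSeq promoters of GRCh38.p14, and 35 of the 37 members had one (not TIMM8B or TOMM5). The stretches hold the 120 bases before the transcription start, and capitals mark matches to the CCAAT box, to YY1 (AAGATGGCG), to NRF1, to the ETS factor GABPA (CCGGAAG) or to the ATF4 composite element (TGATGNAA), on either strand. The TOMM40 stretch is chr19:44891134-44891253 on the plus strand, and that of TOMM40L is chr1:161225940-161226059 on the plus strand.
TOMM40: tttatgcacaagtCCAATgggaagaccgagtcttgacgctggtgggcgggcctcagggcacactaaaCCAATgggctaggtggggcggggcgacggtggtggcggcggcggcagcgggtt
TOMM40L: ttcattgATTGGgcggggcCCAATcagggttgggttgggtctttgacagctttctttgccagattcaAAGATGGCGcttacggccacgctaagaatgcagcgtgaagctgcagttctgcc
Both stretches hold CCAAT boxes, which lie 107 and 53 bases before the start in TOMM40 and 113 and 101 bases before it in TOMM40L, counted from the first base of the match. The YY1 letters of TOMM40L begin 53 bases before the start. These are letter matches and say nothing of binding.

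Of the 3 small TOM subunits, 2 fell and TOMM7 did not pass. TOMM5, TOMM6 and TOMM7 are short membrane proteins that surround the channel and affect how the complex is assembled. TOMM5 was the most abundant import transcript with DMSO, at 427 and 421 TPM, against 311 and 282 TPM with JG342. The groups stood clearly apart, and the log2 fold change was −0.51 ± 0.09 SE (limma adjusted p 0.00738). TOMM6 was at 291 and 332 TPM with DMSO and at 244 and 242 TPM with JG342, which is −0.35 ± 0.10 SE in log2 units (limma adjusted p 0.0371). TOMM7 was at 263 and 288 TPM with DMSO and at 339 and 331 TPM with JG342, so that both treated libraries were above both controls. The change of 0.28 ± 0.09 SE on the log2 scale missed the threshold (limma adjusted p 0.0652; 0.00268 with the replicate block and 0.0675 with the block and equal medians). It passed after quantile normalization, at 0.33 (limma adjusted p 0.0378). With DMSO, TOMM5 was at 1.62 and 1.46 times the level of TOMM7. With JG342 it was below TOMM7, at 0.919 and 0.853 times. This ratio was chosen after its values were seen. On the same strand, the annotated gene AL138752.2 shares up to 520 nt of exon with TOMM5, and AL365205.1 holds the whole TOMM6 transcript, so reads of these pairs may be split.

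The promoter stretches of TOMM6 and TOMM7 are shown because TOMM6 fell and TOMM7, in the same complex, had a log2 fold change above 0. They are chr6:41787574-41787693 on the plus strand and chr7:22822850-22822969 on the minus strand.
TOMM6: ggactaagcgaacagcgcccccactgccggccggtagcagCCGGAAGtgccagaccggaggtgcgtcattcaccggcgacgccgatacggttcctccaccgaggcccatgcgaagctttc
TOMM7: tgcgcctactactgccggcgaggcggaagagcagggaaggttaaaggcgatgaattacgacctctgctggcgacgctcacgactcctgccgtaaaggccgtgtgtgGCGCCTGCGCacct
TOMM6 carries the ETS letters, beginning 80 bases before the start, with a further match outside the stretch. TOMM7 carries the NRF1 letters on the reverse strand, 14 bases before the start.

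Of the 4 genes named as TOM receptors, none was called lower in limma. An unadjusted p under 0.05 was found for TOMM22 and TOMM20L. TOMM20L was past the threshold as a gene that entered the fit through its higher group, so it supports no count here. TOMM20, the main receptor for presequences, was at 176 and 199.7 TPM with DMSO and at 204 and 178 TPM with JG342. The groups overlapped, and the 95% interval of the log2 difference from limma ran from −0.22 to 0.27. Its sign was negative after scaling to equal medians. TOMM20 stood at 157 and 266 times TOMM20L with DMSO and at 64.0 and 84.0 times with JG342. TOMM20L, a close relative of TOMM20, was the lowest member, at 1.12 and 0.75 TPM with DMSO and 3.18 and 2.12 TPM with JG342. The change was 0.91 ± 0.23 SE in log2 units (limma adjusted p 0.0271), with 1.41 at a pseudocount of 0.1, and the adjusted p was 0.0765 without a filter on low values and 0.0606 after quantile normalization. The call was lost when either DMSO library or JG342 replicate 1 was left out. Exons of TOMM20L overlap those of TIMM9 by 173 nt on the opposite strand, and TIMM9 was far higher, between 38.3 and 40.1 TPM in all libraries. TOMM22, the central receptor and organiser of the complex, was at 185 and 206 TPM with DMSO and at 158 and 164 TPM with JG342. Its groups did not overlap and its log2 fold change of −0.28 ± 0.10 SE had a limma adjusted p of 0.0782 (0.0463 at equal medians and 0.00566 with the replicate block). TOMM70, the receptor that docks cytosolic HSP70 and HSP90, was at 75.3 and 85.9 TPM with DMSO and 69.2 and 71.6 TPM with JG342 (−0.19 ± 0.11 SE, limma adjusted p 0.249; 0.0348 with the block and equal medians). TOMM34, a cytosolic co-chaperone that shares only the name, followed the replicate number rather than the treatment. It was at 49.98 and 52.5 TPM in the libraries numbered 1 and at 74.1 and 70.2 TPM in those numbered 2.

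None of the 3 SAM genes passed in limma, and 2 had an unadjusted p under 0.05. SAMM50, the barrel-inserting core, was at 57.5 and 67.0 TPM with DMSO and at 50.5 and 48.9 TPM with JG342. The change was −0.32 ± 0.11 SE in log2 units (limma adjusted p 0.0852, with 0.0432 at equal medians and 0.00945 with the replicate block). MTX2, a metaxin that sits on the cytosolic face of SAM, was at 52.5 and 58.6 TPM with DMSO and at 66.6 and 68.4 TPM with JG342, with no overlap. The change was 0.28 ± 0.11 SE in log2 units (limma adjusted p 0.101; 0.0219 with the block and 0.0730 with the block and equal medians). Its partner MTX1 was between 61.2 and 69.2 TPM in all libraries, with overlapping groups. The ratio of MTX1 to MTX2 was 1.24 and 1.08 with DMSO and 0.918 and 1.01 with JG342. MTX1 has a pseudogene that matches 51.3% of its transcript, so its level is uncertain.

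In the MIA pathway the oxidoreductase fell and its partner did not pass. CHCHD4, also known as MIA40, introduces disulfide bonds into arriving proteins. It was at 69.4 and 71.2 TPM with DMSO and at 52.1 and 49.3 TPM with JG342, with no overlap, which is −0.46 ± 0.10 SE in log2 units (limma adjusted p 0.0151). GFER, the sulfhydryl oxidase that regenerates CHCHD4, was at 16.6 and 16.2 TPM with DMSO and 17.4 and 18.1 TPM with JG342 (log2 fold change 0.11 ± 0.12 SE, limma adjusted p 0.583). A processed pseudogene matches 23.3% of the CHCHD4 transcript. The CHCHD4 promoter stretch is chr3:14124871-14124990 on the minus strand and is shown for its NRF1 match, 87 bases before the start.
CHCHD4: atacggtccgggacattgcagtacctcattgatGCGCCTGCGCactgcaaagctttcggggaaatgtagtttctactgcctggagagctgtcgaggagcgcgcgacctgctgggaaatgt
A further NRF1 match begins 152 bases before the start.

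Genes of proteins that CHCHD4 oxidises were mixed. Of 19 listed proteins with the twin cysteine pattern of its substrates, 3 genes were called higher and 2 lower, beside 18.4% called over all fitted genes. These counts were 1 and 2 with equal medians, 4 and 5 with the replicate block, and 3 and 7 with both. Over all fitted genes 18%, 34.9% and 33.1% were called in these fits, in either direction. The median of the 19 listed genes was −0.08 on the log2 scale, beside 0.03 for all fitted genes. The members with the smallest p were NDUFS5, a subunit of complex I, and COA5, an assembly factor of cytochrome oxidase. NDUFS5 was at 455 and 443 TPM with DMSO and 334 and 338 TPM with JG342 (log2 fold change −0.42 ± 0.09 SE, limma adjusted p 0.0125). COA5 was at 28.4 and 26.7 TPM and then at 39.1 and 37.3 TPM (0.46 ± 0.11 SE, limma adjusted p 0.0234). Both calls were lost when either DMSO library was left out, and that of COA5 also without JG342 replicate 1 (limma adjusted p 0.0795 to 0.143).

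The 6 small TIM chaperones, which carry hydrophobic proteins across the intermembrane space, all had log2 fold changes below 0, from −0.29 for TIMM8A to −0.0057 for TIMM9. None passed in limma, while 3 had an unadjusted p under 0.05. With the replicate block 2 passed as lower, beside 15.7% of all fitted genes. The partners of the known hexamers differed in size. TIMM8B was at 155 and 172 TPM with DMSO and at 122 and 146 TPM with JG342 (−0.28 ± 0.11 SE, limma adjusted p 0.120, and 0.00596 with the block). TIMM13, which pairs with TIMM8 proteins, was at 165 and 170.2 TPM and then at 132 and 148 TPM (−0.26 ± 0.10 SE, limma adjusted p 0.0997; 0.0116 with the block). Both had no overlap between groups. TIMM9 and TIMM10, which pair with each other, overlapped: TIMM10 was at 121 and 136 TPM with DMSO and at 119 and 125 TPM with JG342. TIMM8A was at 24.4 and 22.2 TPM with DMSO and at 19.1 and 18.5 TPM with JG342 (−0.29 ± 0.12 SE, limma adjusted p 0.130; 0.0267 with the block and equal medians). The ratio of TIMM8A to TIMM8B was 0.158 and 0.129 with DMSO and 0.156 and 0.127 with JG342. TIMM10B was at 37.8 and 33.8 TPM with DMSO and at 40.4 and 30.5 TPM with JG342. The ratio of TIMM10 to TIMM10B also overlapped between groups, at 3.20 and 4.03 with DMSO and 2.95 and 4.09 with JG342. TIMM8B overlaps NKAPD1 by up to 351 nt on the opposite strand and also has a close pseudogene.

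At the TIM22 complex, which inserts carrier proteins into the inner membrane, the channel gene fell. TIMM22 was at 33.6 and 38.0 TPM with DMSO and at 25.9 and 27.3 TPM with JG342, with no overlap, which is −0.41 ± 0.12 SE in log2 units (limma adjusted p 0.0424). TIMM29, its scaffold partner, was at 20.7 and 20.4 TPM and then at 22.1 and 22.8 TPM (0.12 ± 0.12 SE, limma adjusted p 0.502). The TIMM22 promoter stretch, chr17:997009-997128 on the plus strand, is shown because it was the only called member with an ATF4 composite element, on the reverse strand 82 bases before the start.
TIMM22: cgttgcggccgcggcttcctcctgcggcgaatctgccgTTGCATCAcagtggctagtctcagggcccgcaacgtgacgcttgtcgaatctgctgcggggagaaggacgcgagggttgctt
TIMM22 shares 154 nt of an exon with ABR on the opposite strand.

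Among the 6 TIM23 genes, TIMM21 fell and the others did not pass. TIMM21 links TIM23 to the TOM complex and to respiratory chain assembly. It was at 82.8 and 79.2 TPM with DMSO and at 55.9 and 55.8 TPM with JG342, 31.0% lower in mean. The change was −0.53 ± 0.10 SE in log2 units (limma adjusted p 0.00852). TIMM50, the receptor of the complex, was between 48.8 and 53.3 TPM in all libraries. TIMM23, the channel protein, was at 152 and 156 TPM with DMSO and 137 and 149 TPM with JG342 (−0.11 ± 0.10 SE, limma adjusted p 0.463). Its near copy TIMM23B matches it at 98.4% identity over 55.3% of the transcript, so the split of reads is uncertain. TIMM23B was at 23.0 and 19.5 TPM with DMSO and 26.4 and 25.7 TPM with JG342 (0.29 ± 0.13 SE, limma adjusted p 0.154). The ratio of TIMM23 to TIMM23B was 6.60 and 7.98 with DMSO and 5.17 and 5.79 with JG342.

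The alternative TIM23 subunits TIMM17A and TIMM17B took opposite sides of 0. TIMM17A passed only with the block and equal medians, and TIMM17B passed in none of the fits. TIMM17A was at 116 and 134 TPM with DMSO and at 112 and 104 TPM with JG342 (−0.21 ± 0.11 SE in log2 units, limma adjusted p 0.208; 0.0351 with the block and equal medians). TIMM17B was at 66.5 and 77.5 TPM with DMSO and at 84.1 and 83.1 TPM with JG342 (0.22 ± 0.11 SE, limma adjusted p 0.200). The ratio of TIMM17A to TIMM17B within each library was 1.75 and 1.73 with DMSO and 1.33 and 1.25 with JG342, a mean of 1.74 ± 0.0086 against 1.29 ± 0.0587 (SD, n = 2). Of the 9 listed paralog pairs, 6 had ratios that did not overlap between groups, that of TOMM20 to TOMM20L among them. Single genes did not overlap for 62.1% of all fitted genes, and no share was computed for ratios of other gene pairs. With 2 libraries a group, an exact two-sided permutation test of such a ratio cannot give a p below 0.333.

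**Figure D2:**
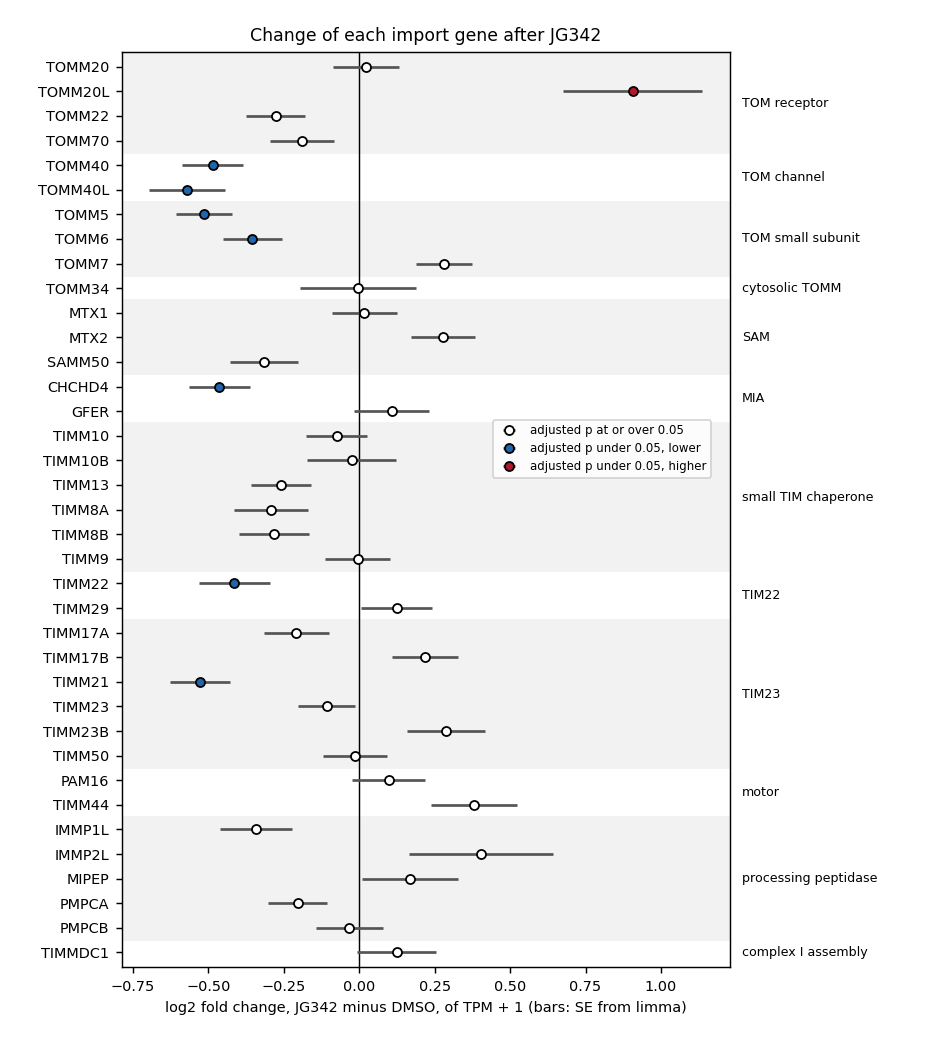
Log2 fold change (JG342 minus DMSO, TPM + 1) of each of the 37 import genes with its SE from limma, grouped by role; filled points passed at an adjusted p under 0.05. The 7 lower genes lie between −0.57 and −0.35, and TOMM20L is the only filled point above 0.

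Neither motor gene among the members passed in limma, and 1 had an unadjusted p under 0.05. TIMM44 tethers mitochondrial HSP70 to the TIM23 channel. It was at 68.9 and 86.8 TPM with DMSO and at 90.9 and 112 TPM with JG342. The groups did not overlap but the replicates differed widely, and the log2 fold change was 0.38 ± 0.14 SE (limma adjusted p 0.0956; 0.000462 with the replicate block). It was higher by 0.39 in the pair of libraries numbered 1 and by 0.36 in the pair numbered 2. It ran from 0.21 without DMSO replicate 1 and 0.23 without JG342 replicate 2 to 0.53 without JG342 replicate 1, where it passed (limma adjusted p 0.0454), and 0.54 without DMSO replicate 2. PAM16, the regulatory J-like protein, was at 48.6 and 46.2 TPM with DMSO and at 46.4 and 55.5 TPM with JG342, with overlap. The annotated gene CORO7-PAM16, on the same strand, matches 75.6% of the PAM16 transcript at 100% identity, so reads of this pair may be split.

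Further motor genes outside the rule came from a list of 15 import partners, of which 2 were called higher and 1 lower, beside 18.4% of all fitted genes in either direction. HSPA9, the mitochondrial HSP70 itself, rose from 323 and 327 TPM to 491 and 511 TPM (log2 fold change 0.62 ± 0.09 SE, limma adjusted p 0.00259). DNAJC19, its activating J protein at the channel, rose from 63.2 and 71.9 TPM to 84.2 and 100.6 TPM (0.44 ± 0.12 SE, limma adjusted p 0.0360). The related DNAJC15 was at 27.6 and 26.9 TPM and then at 25.8 and 24.6 TPM (limma adjusted p 0.546). Of the nucleotide exchange factors, GRPEL1 lay between 38.9 and 47.0 TPM in all libraries with overlap, whereas GRPEL2 was at 18.9 and 26.0 TPM with DMSO and at 29.1 and 33.1 TPM with JG342 (0.47 ± 0.16 SE, limma adjusted p 0.0737; 0.000782 with the replicate block). HSPE1, the co-chaperonin that folds imported proteins with HSPD1, was the gene called lower, from 554 and 588 TPM to 372 and 467 TPM (−0.45 ± 0.12 SE, limma adjusted p 0.0293). With equal medians the limma adjusted p of DNAJC19 was 0.0862, and without a filter on low values it was 0.109 for DNAJC19 and 0.114 for HSPE1. Both were also lost without a trend, after quantile normalization and without either DMSO library, as was DNAJC19 without JG342 replicate 2 and HSPE1 without JG342 replicate 1, where HSPE1 was at −0.29 (limma adjusted p 0.0506 to 0.192). With the replicate block, 3 of the 15 were called higher and 3 lower, beside 19.2% and 15.7% of all fitted genes.

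**Figure D3:**
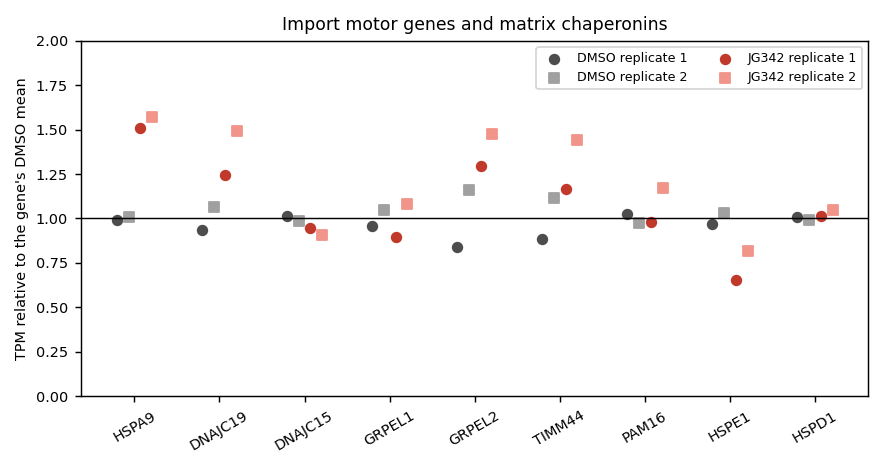
TPM of the import motor genes and of the matrix chaperonins HSPD1 and HSPE1 in each library, divided by the gene's DMSO mean. HSPA9 is above 1 in both JG342 libraries and tightly grouped, whereas the JG342 points of GRPEL1 and PAM16 lie on both sides of 1.

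None of the 5 processing peptidase genes passed in limma, and 1 had an unadjusted p under 0.05. That gene was IMMP1L, a subunit of the inner membrane peptidase, at 28.9 and 26.3 TPM with DMSO and 21.1 and 21.95 TPM with JG342 (−0.34 ± 0.12 SE, limma adjusted p 0.0790; 0.0207 with the replicate block). IMMP2L, the other catalytic subunit, was low and overlapped between groups, at 4.47 and 3.32 TPM with DMSO and 7.07 and 4.13 TPM with JG342 (0.40 ± 0.24 SE, limma adjusted p 0.270). PMPCA and PMPCB are the subunits of the matrix processing peptidase. PMPCA was at 84.98 and 90.7 TPM with DMSO and 75.0 and 77.2 TPM with JG342 (−0.20 ± 0.10 SE, limma adjusted p 0.182; 0.0277 with the block and equal medians). PMPCB, the catalytic subunit, was between 45.9 and 51.9 TPM in all libraries, with overlap (−0.03 ± 0.11 SE, limma adjusted p 0.866). The ratio of PMPCA to PMPCB was 1.85 and 1.75 with DMSO and 1.60 and 1.58 with JG342, and that of IMMP1L to IMMP2L was 6.46 and 7.92 with DMSO and 2.98 and 5.31 with JG342. MIPEP, an intermediate peptidase, lay between 5.48 and 6.89 TPM. TIMMDC1 bears a TIMM name but assembles complex I, and it overlapped between groups, between 55.4 and 71.4 TPM.

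The outer and inner membrane genes were then compared by name. On the log2 scale the median change of the 10 TOMM genes was −0.23, with 4 called lower, beside 7.62% of all fitted genes, and TOMM20L past the threshold as higher. With a filter of 5 TPM, which left out TOMM20L, the TOMM median was −0.28. The 15 TIMM genes, without TIMMDC1, had a median of −0.07, with 2 called lower and none higher in limma, while 6 had an unadjusted p under 0.05. With the replicate block 5 TOMM and 4 TIMM genes were called lower, and with the block and equal medians 6 and 6, beside 15.7% and 19.2% of all fitted genes. The median over all fitted genes was 0.03. The TOMM median lay 0.16 below the TIMM median (difference −0.16). In the pair numbered 1 the medians were −0.17 for TOMM, −0.04 for TIMM and 0.065 over all fitted genes. In the pair numbered 2 they were −0.29, −0.13 and −0.016. The difference of the TOMM and TIMM medians was −0.058 without DMSO replicate 2 and −0.19 without DMSO replicate 1. Below 0 in both pairs were 6 of the 10 TOMM and 8 of the 15 TIMM genes, beside 4199 of 12042 fitted genes. Above 0 in both pairs were 2 TOMM genes, TOMM7 and TOMM20L, and 4 TIMM genes, beside 4898 of all fitted genes. The members are not replicates of one another, so no test of this difference was made.

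**Figure D4:**
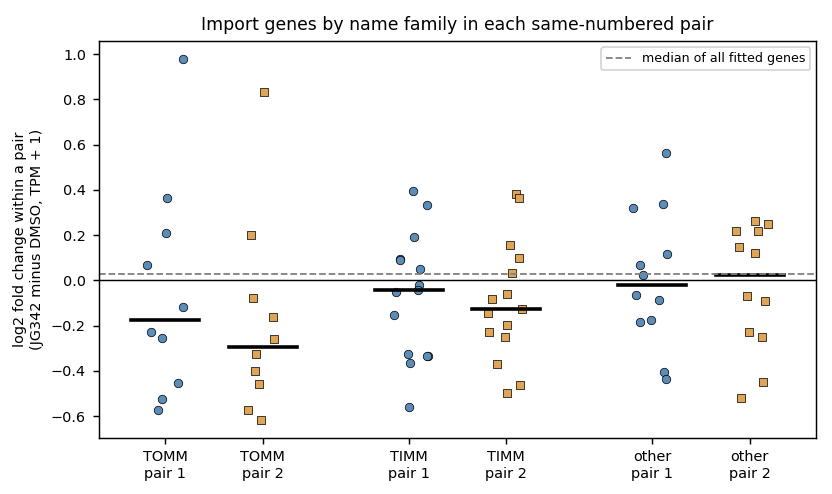
Log2 fold change (JG342 minus DMSO, TPM + 1) of every import gene within the pair of libraries numbered 1 (circles) and the pair numbered 2 (squares), by name family. Thick bars are medians, −0.17 and −0.29 for TOMM against −0.04 and −0.13 for TIMM. The dashed line is the median of all fitted genes over both pairs, which was 0.065 within pair 1 and −0.016 within pair 2. The families overlap widely.

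Summed levels gave the same order. The TOMM genes together held 1705 and 1853 TPM with DMSO and 1539 and 1522 TPM with JG342. The TIMM genes held 1155 and 1238 TPM with DMSO and 1076 and 1139 TPM with JG342, where the highest JG342 library lay just under the lowest DMSO library. TOMM5, TOMM6 and TOMM7 were the 3 most abundant members with DMSO. Over all 37 genes the sum was 3396 and 3663 TPM with DMSO and 3135 and 3197 TPM with JG342. Groups did not overlap for 26 of the 37 genes, or 70.3%, beside 62.1% of all fitted genes. Of these, 17 were lower with JG342 and 9 higher, TOMM20L among the 9, beside 28.2% and 34% of all fitted genes. By sign alone, 23 of the 37 log2 fold changes were below 0, beside 46.5% of all fitted genes.

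Short promoter motifs were counted over the 250 bases before the start in the 35 members with a sequence and in 9617 fitted genes. The ETS letters were in 34.3% of members and 16.6% of fitted genes, and the NRF1 letters in 7 of the 35 members and 10.9% of fitted genes. Both factors are textbook regulators of nuclear genes for mitochondria. NRF1 matches were found in CHCHD4 and TOMM40, which fell, and also in TOMM7, TOMM20, TOMM34, TIMM29 and PAM16, which were not called. CCAAT boxes were in 4 of the 6 lower genes with a sequence (TIMM21, TIMM22, TOMM40 and TOMM40L), in 12 of the 35 members and in 35.5% of fitted genes. The ATF4 composite element was in PMPCB and TIMM22, and in 1.42% of fitted genes. The YY1 letters were in IMMP1L and TOMM40L, and in 1.07% of fitted genes. The GC box (GGGCGG) was in 21 of the 35 members and 66.8% of fitted genes, and the E-box (CACGTG) in 5.71% and 9.12%. The heat shock element had no match in these windows, against 0.291% of fitted genes. The motifs were searched on both strands and may overlap, and no test was made.

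Genes that deliver or organise import were taken from lists. Of 11 cytosolic delivery chaperones and co-chaperones, 5 were called lower, beside 7.62% of all fitted genes, and none higher, with a median of −0.20 on the log2 scale, while 6 had an unadjusted p under 0.05. UBQLN2, a ubiquilin, was called higher with the replicate block (log2 fold change 0.38, limma adjusted p 0.00712; 0.0327 with the block and equal medians). The smallest p belonged to HSP90AA1, from 643 and 600.2 TPM to 375 and 349 TPM (−0.78 ± 0.09 SE, limma adjusted p 0.00123), and to HSP90AB1, from 1954 and 1926 TPM to 1360 and 1409 TPM (−0.49 ± 0.09 SE, limma adjusted p 0.00776). HSP90AB1 lost its call when either DMSO library was left out (limma adjusted p 0.0677 and 0.0719). Both are cytosolic HSP90 forms that hand precursors to TOMM70. Of 8 genes of MICOS, the complex that shapes cristae and contacts SAM, none passed in limma, beside 18.4% of all fitted genes in either direction. Of these 8, 1 had an unadjusted p under 0.05. With the replicate block 1 passed as lower, beside 15.7% of all fitted genes. With the block and equal medians 4 of the 8 passed as lower (APOO, IMMT, MINOS1 and DNAJC11), beside 19.2% of all fitted genes. Their median was −0.18, with 7 of 8 below 0. APOO had the smallest p, at 35.7 and 50.1 TPM with DMSO and at 29.8 and 34.0 TPM with JG342 (−0.40 ± 0.16 SE, limma adjusted p 0.121; 0.00226 with the block). It ran from −0.16 without DMSO replicate 2 to −0.64 without DMSO replicate 1, where it passed (limma adjusted p 0.0428). MINOS1 followed (−0.21 ± 0.11 SE, limma adjusted p 0.210).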

How the data were processed

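RNA sequencing of 4 MM.1S libraries was analysed, 2 per treatment, as biological duplicates per the labels. The authors deposited 1 value per gene and library, taken here as TPM, which are estimated abundances divided by transcript length and normalized to a common total. The header names no unit, and TPM was inferred from the near-equal library totals. HISAT2 2.0.4, Bowtie2 2.2.5 and RSEM 1.2.12 are named, per the submitters' processing notes, with no role; build, annotation and filters are not given in the sources used here. Values were transformed to log2(TPM + 1), which understates changes of low genes. Genes averaging 1 TPM or more (12042, with 4015 left out) were fitted with limma 3.58.1 in R 4.3.3 (eBayes with trend, treatment as the only term), two-sided, with Benjamini-Hochberg adjustment at 0.05; the fit had 2 residual and 6.89 prior degrees of freedom. Same-numbered libraries share the opening of their sample description, and their deviations from the group means correlated at r = 0.27 over genes, so a fit with the replicate block is given where it changed the call of a member or of another gene given with values, or a list's count; that fit had 1 residual degree of freedom and an infinite prior, and 7.49 prior degrees of freedom with equal medians. BLAST 2.17.0 compared members with GENCODE 29 transcripts to find close copies (at least 95% identity over 20% of the transcript). Close copies were found for 16 members, and exons of 18 members overlapped a protein-coding gene. Not all of these are named above. The fit was tested on simulated data with 200 genes changed. Of genes changed by 0.5 and −0.5 on the log2 scale, 22% and 28% were called. With a shift shared by same-numbered libraries these were 14% and 24%. Of genes changed by 1 and −1, 100% and 96% were called. A member that did not pass may thus still have changed. Import genes past the threshold, those with the largest changes and the ratios of listed paralog pairs were given, and partner genes by lists; members and lists were chosen with earlier results of these data known. GENCODE and RefSeq served only for names, copies, overlaps and promoters. The level of 1 listed marker is not reported here.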

Additional observations from a re-analysis of the deposited data

How the results depend on the processing

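Of the counts and medians recomputed under alternatives, 56 stayed within 1.5 times a reported count or within 1 SD of the pair values of a reported median, 28 moved further and none changed sign. Calls over all genes, 2221, became 828 without a filter on low values, 4207 with the replicate block, 3985 with the replicate block and equal medians, and 773 to 1905 when each library was left out. Import genes called lower, 7, became 3 without the filter, 4 without a mean-variance trend, 12 with the block, 16 with the block and equal medians, and 1 to 6 with a library left out. Import genes called higher, 1, became 0 without the filter and with a filter of 5 TPM, 4 with the block and 2 with the block and equal medians. The 1 was TOMM20L, which supports no count and left the fit with the filter of 5 TPM. Besides TOMM20L, those called were MTX2, TIMM44 and TOMM7 with the block and TIMM44 with the block and equal medians. The TIMM median was −0.14 with equal medians, with and without the replicate block, ran from −0.12 without DMSO replicate 1 to −0.045 without JG342 replicate 1, and was −0.015 without the small TIM chaperones. The TOMM median ran from −0.32 to −0.15 with a library left out. The difference of medians was −0.20 with a filter of 5 TPM, ran from −0.19 to −0.058 with a library left out, and, under lists chosen after seeing the data, was −0.24 without TOMM34 and TOMM20L and −0.22 without the small TIM chaperones. CHCHD4, TIMM21 and TOMM5 lost their call only when DMSO replicate 1 was left out or, for CHCHD4 and TOMM5, DMSO replicate 2. Without the filter TOMM40, TOMM40L, TOMM6 and TIMM22 had limma adjusted p values of 0.0559, 0.0666, 0.0917 and 0.0924. The calls of TOMM40, TOMM6 and TIMM22 were also lost without a mean-variance trend. With equal medians MTX1 was at −0.050 and TOMM20 at −0.047, with and without the block. With a library left out, genes near 0 changed sign: GRPEL1 ran from −0.16 to 0.11, MTX1 from −0.071 to 0.11, PAM16 from −0.030 to 0.22, PMPCB from −0.12 to 0.054, TIMM10 from −0.16 to 0.011, TIMM10B from −0.22 to 0.17, TIMM50 from −0.078 to 0.047, TIMM9 from −0.037 to 0.026, TIMMDC1 from −0.056 to 0.30, TOMM20 from −0.074 to 0.12 and TOMM34 from −0.28 to 0.28. The cause of these shifts was not tested; a fit with a library left out assumes that the lone library varies like the others.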
